A study of Mus musculus with 8 samples.

Results

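Solute carriers are the membrane proteins that move small molecules across the cell surface and the membranes of organelles. The genes described here are those whose symbol has the form Slc, a family number, the letter a and a member number, apart from *Slc2a1*. They were found by symbol among the probe sets that the platform annotation gives exactly 1 gene, with the probe set of highest mean standing for a gene, and made 176 of the 11667 genes tested. Each of the 176 had 1 probe set. A further 2 probe sets with such a symbol also carried other symbols and were left out. The pattern also takes in 4 genes that encode no transporter, *Slc4a1ap*, *Slc7a6os*, *Slc9a3r1* and *Slc9a3r2*, which were kept as a group of their own.

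RNA came from 8 subcutaneous tumours of HM-1, a mouse ovarian cancer line, grown from cells injected into the flank of B6C3F1 mice and taken at a long diameter of 1.5 cm. From day 3 after injection, per the labels, mice were given an anti-VEGF antibody, which blocks the main growth factor of blood vessels (4 tumours), or rat IgG as the isotype control (4 tumours). All tumours were of this 1 line, and each was measured whole, host cells included, on 1 Affymetrix mouse transcriptome array. The labels number the tumours of a group but do not tie each to a mouse of its own, so the p-values measure the spread between these samples.

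Families of solute carriers are named by number, and a number usually goes with a kind of substrate. Facilitative glucose transporters let sugar run down its gradient, while many amino acid carriers use the sodium gradient or exchange one amino acid for another. Monocarboxylate transporters carry lactate with a proton, and are known in tumours for clearing the acid that glycolysis makes. Mitochondrial carriers of the SLC25 family pass nucleotides, phosphate, amino acids and metals through the inner membrane.

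Values are log2 expression, and differences are anti-VEGF minus control on the same scale. A gene is said to have risen or fallen where limma gave an adjusted p (Benjamini-Hochberg over all 11667 genes) under 0.05 on the deposited values. Genes with a mean log2 of at least 5 over the 8 arrays are called expressed and the others dim. Among the solute carriers 75 were expressed and 101 dim. The expressed gene nearest the boundary was *Slc2a6*, with a mean of 5.05, and the nearest dim gene was *Slc6a3*, with a mean of 4.997. The spread of the values over all genes was wider on anti-VEGF arrays (SD 1.99 to 2.08) than on control arrays (SD 1.12 to 1.66). Across the whole table dim genes lay lower and bright genes higher on anti-VEGF arrays. The median difference of all genes was -0.44 on the deposited values, -0.03 after the deposited arrays were quantile-normalised again and -0.02 after cyclic loess. The main differences are therefore set beside the median difference of all genes of nearly the same level (mean within 0.25), or beside the value after quantile normalisation, or both. Arrays that have been quantile-normalised at the probe level, as the named method does, usually have a like spread, so how these values were brought to their deposited form is not settled. Control array 3 correlated least with the others (r 0.774 to 0.869).

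Of the 75 expressed solute carrier genes, 37 rose and 5 fell, against 41.5% of all expressed genes that rose and 9.71% that fell. After quantile normalisation 11 of the 75 were higher and 4 lower, against backgrounds of 12.7% and 7.42%, and after cyclic loess 11 were higher and 7 lower, against 17.6% and 16%. Of the 101 dim genes, 91 fell and 0 rose by limma (96 and 0 at an unadjusted p under 0.05), while after quantile normalisation 2 were lower and 1 was higher. Among all dim genes 76.7% fell and 0.934% rose on the deposited values, and 2.02% were lower and 3.25% higher after quantile normalisation. After cyclic loess 6 of the 101 were lower and 1 was higher, against 4.2% and 6.47% of all dim genes. The median difference was 0.50 for expressed solute carriers and 0.42 for all expressed genes, and -0.81 for dim solute carriers and -0.85 for all dim genes. After quantile normalisation these medians were 0.20 and 0.06 for expressed genes, and -0.16 and -0.07 for dim genes. As shares, 49.3% of the expressed solute carriers rose and 90.1% of the dim ones fell. By level, 20.5% of the 39 solute carriers with a mean of 5 to 6 rose, as did 20.5% of all genes there. The shares were 70% of 20 against 52.4% from 6 to 7, 88.9% of 9 against 67.9% from 7 to 8, and 100% of 7 against 57.1% from 8 upwards, where the medians were 1.28 and 0.86. These differences were not tested. The counts of each family below stand against 41.5% of all expressed genes that rose, 9.71% that fell, and 76.7% of all dim genes that fell.

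**Figure D1:**
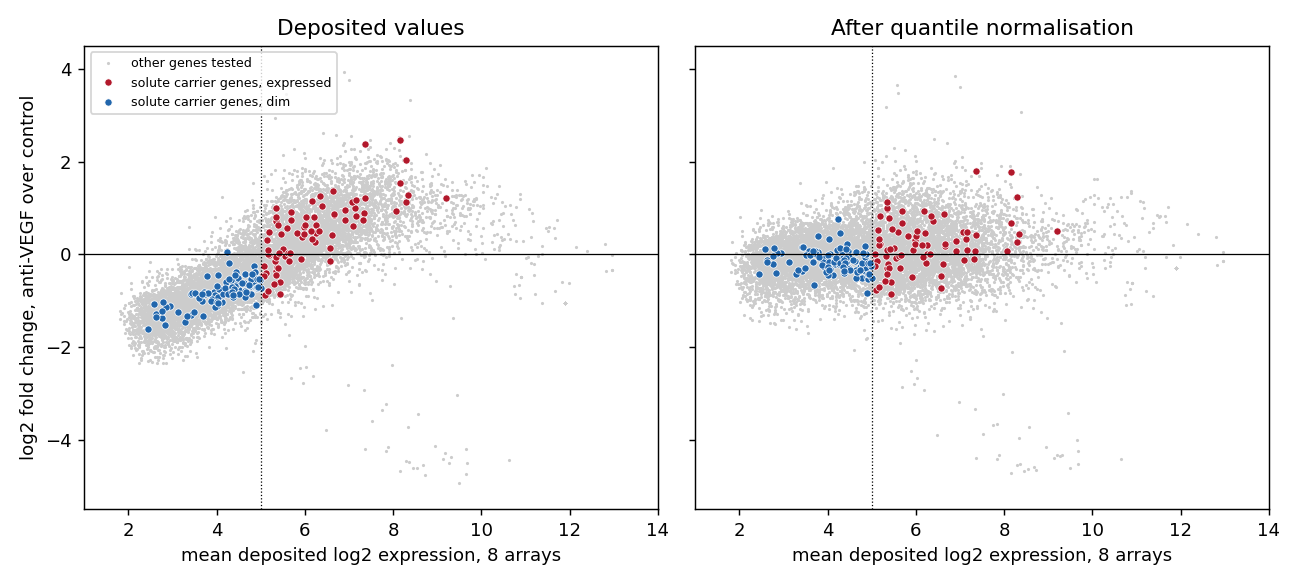
Difference between the groups (anti-VEGF minus control, log2) against the mean deposited log2 expression over 8 arrays for all 11667 genes, on the deposited values (left) and after quantile normalisation (right). Red points are the 75 expressed and blue points the 101 dim solute carrier genes, and the dotted line is the boundary at 5. The slope with level on the left, in solute carriers and in other genes, is smaller on the right but not gone. On the right the medians of dim and expressed solute carriers are -0.16 and 0.20, and those of all genes -0.07 and 0.06.

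The genes called under both scalings were 11 higher genes, all expressed, and 5 lower genes, of which *Slc16a8* and *Slc6a21* were dim. Among all genes 6.03% were called higher and 2.55% lower under both. All but *Slc9a9* were also called after cyclic loess, where the background of genes called under all 3 scalings was 5.79% higher and 2.44% lower. On the deposited values all 16 kept their call whichever array was left out. After quantile normalisation no solute carrier passed in limma without anti-VEGF 2, 3 or 4, where the lowest adjusted p values were 0.0815, 0.0820 and 0.0826. At an unadjusted p under 0.05 there were then 13, 14 and 13 higher and 12, 12 and 12 lower. The same held for nearly all genes, since only 1 of the 11667 passed in each of these 3 fits.

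**Figure D2:**
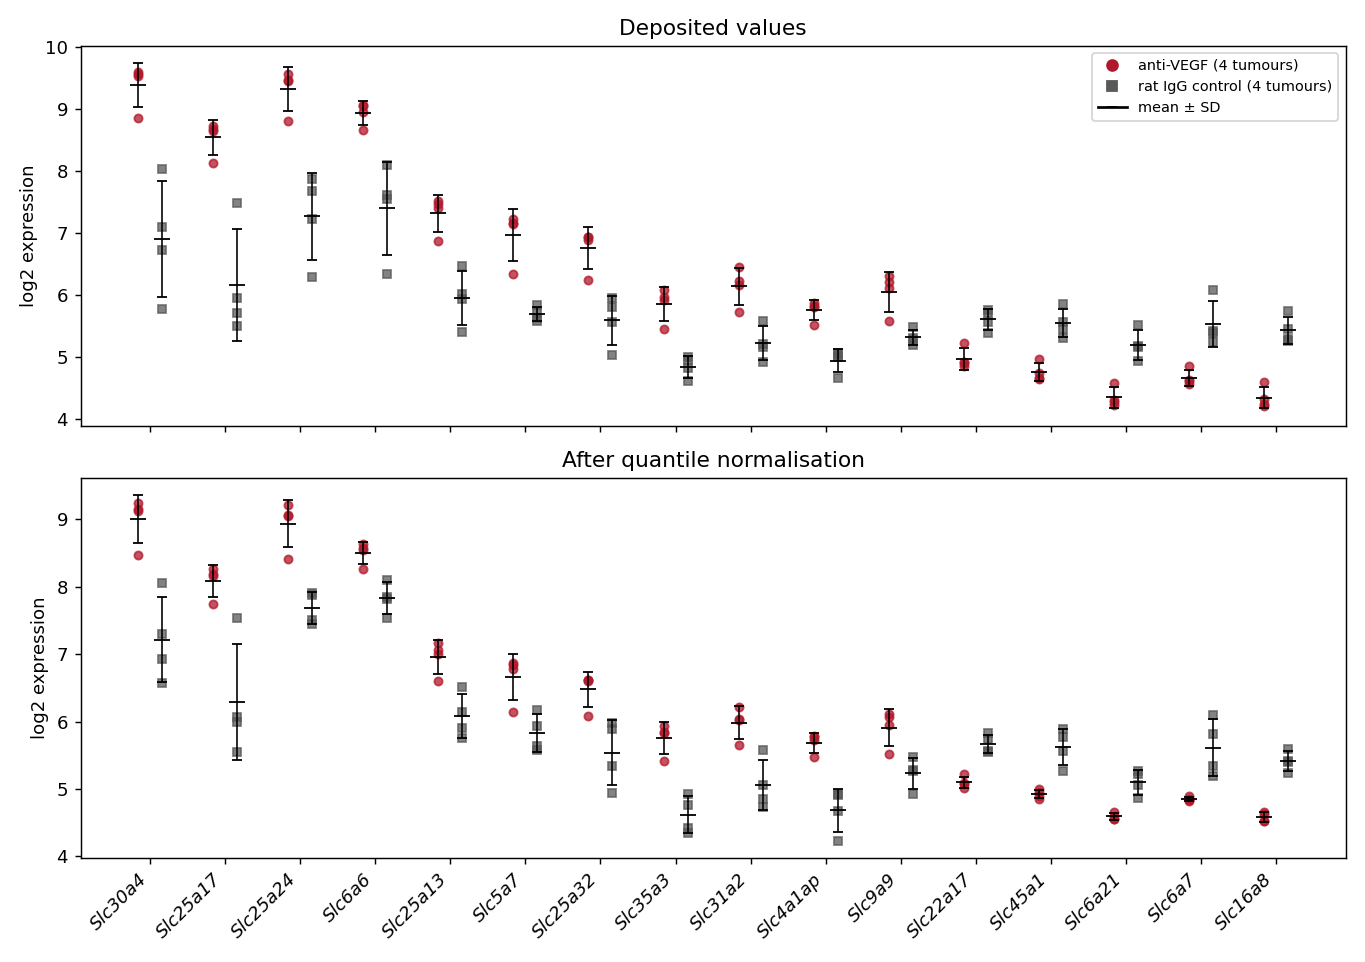
Log2 expression of the 16 solute carrier genes called on the deposited values (top) and after quantile normalisation (bottom), for 4 anti-VEGF tumours (red circles) and 4 control tumours (grey squares), with mean ± SD. On the deposited values the groups of each of the 16 genes are apart, from *Slc30a4* (2.47) to *Slc16a8* (-1.09), but the 16 were picked by their p on these same values. Among all expressed genes the groups were apart in 43.1% with anti-VEGF higher and in 7.81% with anti-VEGF lower. Among all dim genes they were apart in 69% with anti-VEGF lower.

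For the 15 genes called under all 3 scalings, RefSeq start windows (250 bases before to 50 after the gene start, build GRCm38.p6) were at hand for 11, among them 8 of the 10 higher genes. The windows are shown because tumours given anti-VEGF antibody are often studied for low oxygen, whose response factors bind the letters ACGTG or GCGTG. These letters were searched on both strands, where the palindrome CACGTG counts on each strand with an overlap. They were found in 3 of the 8 windows of higher genes (37.5%) and in 1 of 3 windows of lower genes (33.3%). Expressed solute carriers had them in 45 of 80 windows (56.2%) and dim ones in 34 of 92 (37%). Over all RefSeq windows, of 27025 genes whether measured here or not, they were in 14380 of 32851 (43.8%). The higher and lower genes have 1 window each, while in the larger sets a gene can have several, as with 80 windows of 60 expressed and 92 windows of 79 dim solute carriers. Sets of 8 and 3 windows are too small for their shares to be ordered. Below are the windows of the 3 higher genes that hold the letters, and that of *Slc25a17*, which had a like difference and held none. Each runs along the gene from 5′ to 3′, with the matches in capitals.
Slc30a4, chr2:122702614-122702913, minus strand: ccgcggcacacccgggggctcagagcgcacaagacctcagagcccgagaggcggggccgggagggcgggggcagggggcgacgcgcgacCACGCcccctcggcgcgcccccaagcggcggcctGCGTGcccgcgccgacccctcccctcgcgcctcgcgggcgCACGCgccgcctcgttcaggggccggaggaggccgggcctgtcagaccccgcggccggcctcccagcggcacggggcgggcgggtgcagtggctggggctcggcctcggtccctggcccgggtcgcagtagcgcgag
Slc25a13, chr6:6217124-6217423, minus strand: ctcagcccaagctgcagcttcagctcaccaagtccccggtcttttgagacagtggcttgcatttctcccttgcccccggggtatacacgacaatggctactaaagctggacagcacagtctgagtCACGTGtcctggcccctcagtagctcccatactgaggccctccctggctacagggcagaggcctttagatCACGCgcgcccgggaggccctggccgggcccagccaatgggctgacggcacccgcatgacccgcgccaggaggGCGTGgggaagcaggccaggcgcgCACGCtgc
Slc31a2, chr4:62286179-62286478, plus strand: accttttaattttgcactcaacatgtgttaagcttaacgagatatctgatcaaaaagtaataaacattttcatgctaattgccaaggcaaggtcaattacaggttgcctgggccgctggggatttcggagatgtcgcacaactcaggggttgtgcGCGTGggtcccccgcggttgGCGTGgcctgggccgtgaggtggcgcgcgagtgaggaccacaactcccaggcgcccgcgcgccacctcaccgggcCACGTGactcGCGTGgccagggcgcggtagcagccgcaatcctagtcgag
Slc25a17, chr15:81360716-81361015, minus strand: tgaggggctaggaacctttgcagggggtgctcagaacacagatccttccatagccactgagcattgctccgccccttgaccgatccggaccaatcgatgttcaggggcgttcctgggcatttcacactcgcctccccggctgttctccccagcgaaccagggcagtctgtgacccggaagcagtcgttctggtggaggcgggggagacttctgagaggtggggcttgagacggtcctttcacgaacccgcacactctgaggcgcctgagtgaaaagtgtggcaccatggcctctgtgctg
The number of matches was 3 in *Slc30a4*, 5 in *Slc25a13*, 5 in *Slc31a2* and 0 in *Slc25a17*. A match of letters is not a bound site.

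Glucose and other sugar transporters were 15 genes. Of the 7 expressed, 2 rose and 1 fell, with a median difference of -0.02. After quantile normalisation 0 were higher and 1 was lower by limma (1 and 2 at an unadjusted p under 0.05). *Slc37a4*, the carrier of glucose 6-phosphate into the endoplasmic reticulum, read 6.39, 6.28, 6.43 and 6.20 in anti-VEGF tumours and 5.49, 5.74, 5.40 and 6.16 in controls. All anti-VEGF arrays were above all control arrays, by a margin that was small against control 4. The difference was 0.63 ± 0.19 (SE, n = 4 each, adjusted p = 0.0165), against 0.35 for genes of its level, and the adjusted p was 0.0522 without anti-VEGF 3 and 0.220 after quantile normalisation. *Slc37a3*, a lysosomal member of the same family, rose by 0.81 (adjusted p = 0.00921), against 0.45 for genes of its level, and lay at 0.46 after quantile normalisation (adjusted p = 0.155).

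The sugar transporter that fell was *Slc45a1*, a proton-coupled sugar carrier known from brain. It read 4.97, 4.67, 4.75 and 4.64 in anti-VEGF tumours and 5.85, 5.56, 5.46 and 5.32 in controls, and the groups did not overlap. The difference was -0.79 ± 0.17 (adjusted p = 0.00375), where genes of its level had a median of -0.27, and -0.70 after quantile normalisation (adjusted p = 0.0287). *Slc2a6*, a glucose transporter of lysosomes, read 4.89, 4.80, 4.78 and 4.86 in anti-VEGF tumours and 5.72, 5.25, 4.99 and 5.1 in controls. Its groups did not overlap either, but the difference of -0.44 had an adjusted p of 0.0592, which was 0.0190 without control 3 and 0.0495 without control 4. Leaving out any one anti-VEGF array gave adjusted p values between 0.0836 and 0.131. Genes of its level had a median of -0.35. After quantile normalisation *Slc2a6* lay at -0.17 (adjusted p = 0.522), and its groups overlapped. On the deposited values the groups were apart in 43.1% of all expressed genes with anti-VEGF higher and in 7.81% with anti-VEGF lower.

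Of the 8 dim sugar transporters 7 fell and 0 rose, with a median of -0.77, and none passed after quantile normalisation (0 higher and 1 lower at an unadjusted p under 0.05). The exception was *Slc2a4*, the insulin-regulated transporter of muscle and fat, which read 4.76, 4.59, 4.78 and 4.73 in anti-VEGF tumours and 4.85, 5.22, 4.72 and 5.04 in controls (adjusted p = 0.213). Those that fell included *Slc5a4a* (-1.12), the fructose transporter *Slc2a5* (-0.69), the liver and islet glucose transporter *Slc2a2* (-0.88), *Slc2a7* (-0.80) and *Slc5a1* (-0.74), the sodium-coupled glucose transporter of gut and kidney. Genes of the same level had medians of -0.75, -0.66, -0.78, -0.56 and -0.73, and *Slc5a1* lay at 0.00 after quantile normalisation. *Slc2a3* was not analysed here.

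Amino acid and peptide transporters were 26 genes. Of the 9 expressed, 4 rose and 1 fell, with a median of 0.41, while after quantile normalisation 1 was higher and 2 were lower. *Slc6a6*, the taurine transporter, read 8.66, 8.95, 9.07 and 9.05 in anti-VEGF tumours and 7.54, 7.62, 6.34 and 8.10 in controls. The lowest anti-VEGF array was above the highest control array, and control 3 was the lowest of all. It rose by 1.53 ± 0.32 (adjusted p = 0.00308), against a median of 1.02 for genes of its level, and by 0.68 after quantile normalisation (adjusted p = 0.0322).

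The other 3 that rose did not pass after quantile normalisation. *Slc38a4*, a sodium-coupled carrier of small neutral amino acids, read 6.41, 7.20, 7.11 and 6.97 in anti-VEGF tumours and 6.08, 6.10, 5.05 and 6.25 in controls. It rose by 1.05 ± 0.28 (adjusted p = 0.00900), against 0.57 for genes of its level, and after quantile normalisation the difference was 0.72 (adjusted p = 0.152). *Slc15a4*, which takes histidine and small peptides out of endolysosomes, rose by 0.63 (adjusted p = 0.00973), and the neutral amino acid exchanger *Slc1a4* by 0.60 (adjusted p = 0.0159, and 0.0626 without anti-VEGF 2). Genes of their level had medians of 0.48 and 0.33, and after quantile normalisation they lay at 0.21 and 0.31 (adjusted p = 0.360 and 0.204).

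*Slc6a7*, the proline transporter known from brain, fell. It read 4.85, 4.62, 4.56 and 4.63 in anti-VEGF tumours and 6.08, 5.39, 5.43 and 5.24 in controls, with control 1 highest. The difference was -0.87 ± 0.20 (adjusted p = 0.00494), against -0.30 for genes of its level, and -0.76 after quantile normalisation (adjusted p = 0.0442). *Slc7a8*, which exchanges large neutral amino acids and was picked after its values were seen, behaved differently under the scalings. It read 6.38, 6.43, 6.65 and 6.51 in anti-VEGF tumours and 6.93, 6.53, 5.94 and 7.17 in controls, a difference of -0.15 (adjusted p = 0.608), where genes of its level had a median of 0.64. After quantile normalisation it was lower by -0.72 (adjusted p = 0.0238) and after cyclic loess by -0.76 (adjusted p = 0.00723).

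Of the 17 dim amino acid transporters 16 fell and 0 rose, with a median of -0.81, and after quantile normalisation 1 was lower and 0 higher (3 and 1 at an unadjusted p under 0.05). That one was *Slc6a21*, which read 4.59, 4.31, 4.23 and 4.28 in anti-VEGF tumours and 5.52, 5.16, 5.17 and 4.94 in controls. The groups did not overlap, as in 69% of all dim genes with anti-VEGF lower. It fell by 0.85 ± 0.18 (adjusted p = 0.00311) and was lower by -0.51 after quantile normalisation (adjusted p = 0.0419). The largest differences of the dim members were those of *Slc7a12* (-1.60) and *Slc7a13* (-1.53), where genes of the same level had medians of -1.36 and -1.26. *Slc6a15* fell by 1.11, and genes of its level by a median of 1.22. *Slc7a5*, *Slc3a2*, *Slc1a5* and *Slc7a11* were not analysed here.

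Lactate and other monocarboxylate transporters were 8 genes, of which 3 were expressed. *Slc16a1*, the widespread lactate and pyruvate transporter, read 7.21, 7.87, 7.70 and 7.79 in anti-VEGF tumours and 7.20, 7.0, 5.54 and 6.84 in controls. Anti-VEGF 1 and control 1 all but met, and control 3 lay far below the rest. *Slc16a1* rose by 0.99 ± 0.33 (adjusted p = 0.0237), against 0.80 for genes of its level, and without anti-VEGF 2, 3 or 4 its adjusted p was 0.0612, 0.0549 and 0.0582. After quantile normalisation the difference was 0.34 (adjusted p = 0.465). *Slc16a14* read 5.18, 5.87, 6.12 and 5.65 in anti-VEGF tumours and 4.83, 5.39, 4.26 and 5.42 in controls, and the groups overlapped. It rose by 0.73 ± 0.29 (adjusted p = 0.0462), where genes of its level had a median of -0.15, and lay at 0.98 after quantile normalisation (adjusted p = 0.142). The call was lost without anti-VEGF 2, 3 or 4 or control 1 or 3, with adjusted p values between 0.0811 and 0.132. *Slc16a13*, named after its values were seen because it was the remaining expressed member, differed by -0.10 (adjusted p = 0.644).

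The dim members held the clearest fall of the family. *Slc16a8*, a lactate transporter known from the pigment epithelium of the eye, read 4.60, 4.21, 4.34 and 4.25 in anti-VEGF tumours and 5.74, 5.45, 5.26 and 5.29 in controls. The groups were well apart. It fell by 1.09 ± 0.18 (adjusted p = 0.00133), where genes of its level had a median of -0.43, and was lower by -0.83 after quantile normalisation (adjusted p = 0.0170) and by -0.75 after cyclic loess (adjusted p = 0.00523). *Slc5a8*, a sodium-coupled monocarboxylate carrier, fell by 0.96 and *Slc16a7*, a lactate and pyruvate transporter of high affinity, fell by 0.63, while genes of their level fell by medians of 0.81 and 0.52. After quantile normalisation these 2 lay at -0.16 (adjusted p = 0.455) and -0.12 (adjusted p = 0.652). In all 4 of the 5 dim members fell, where 76.7% of all dim genes fell. *Slc16a3* was not analysed here.

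Carriers of ions, such as protons, sodium, potassium, chloride, bicarbonate, sulphate and phosphate, were 25 genes. Of the 9 expressed, 4 rose and 0 fell by limma (1 fell at an unadjusted p under 0.05), with a median of 0.12. The shares of all expressed genes were 41.5% and 9.71%. After quantile normalisation 1 was higher and 0 were lower by limma, also at an unadjusted p under 0.05. *Slc9a9*, a sodium and proton exchanger of endosomes, read 5.58, 6.21, 6.31 and 6.11 in anti-VEGF tumours and 5.28, 5.48, 5.20 and 5.32 in controls. Anti-VEGF 1 was only just above control 2, and the other 3 anti-VEGF arrays were clear of all controls. It rose by 0.74 ± 0.19 (adjusted p = 0.00771), against 0.15 for genes of its level, with 0.68 after quantile normalisation (adjusted p = 0.0437) and 0.59 after cyclic loess (adjusted p = 0.0506). The sodium-coupled phosphate transporter *Slc20a2* rose by 1.13 and the potassium and chloride cotransporters *Slc12a4* and *Slc12a7* by 0.89 and 0.75, where genes of their level had medians of 0.96, 0.89 and 0.77. After quantile normalisation these 3 lay at 0.26, 0.08 and 0.07, and none passed (adjusted p = 0.175, 0.696 and 0.720).

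Of the 16 dim ion carriers 15 fell and 0 rose, with a median of -0.68, where 76.7% of all dim genes fell. After quantile normalisation 0 were lower and 1 was higher by limma (3 and 1 at an unadjusted p under 0.05), with a median of -0.13. *Slc26a8*, an anion transporter known from sperm, fell by 1.01, and *Slc12a1*, the sodium, potassium and chloride cotransporter of the kidney, fell by 0.83, where genes of their level fell by medians of 0.89 and 0.85. The exception was *Slc9a4*, a sodium and proton exchanger known from stomach, which was chosen after its values were seen. It read 4.17, 4.23, 4.38 and 4.25 in anti-VEGF tumours and 4.13, 4.31, 4.17 and 4.16 in controls, so that the groups overlapped. The difference of 0.06 (adjusted p = 0.716) stood beside a median of -0.66 for genes of its level, and was 0.77 after quantile normalisation (adjusted p = 0.0374) and 0.73 after cyclic loess (adjusted p = 0.0119). It was the only dim solute carrier higher under either of these 2 scalings.

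Metal transporters were 12 genes, of which 10 were expressed. Of these 4 rose and 1 fell, and after quantile normalisation 2 were higher and 0 lower (1 lower at an unadjusted p under 0.05 in limma). *Slc30a4*, which moves zinc out of the cytosol into vesicles, had the largest increase of the 176 genes on the deposited values, and *Slc25a17* was slightly ahead of it under the other scalings. *Slc30a4* read 8.85, 9.58, 9.53 and 9.56 in anti-VEGF tumours and 6.72, 7.10, 5.78 and 8.04 in controls. The lowest anti-VEGF array, number 1, was above the highest control array, number 4. *Slc30a4* rose by 2.47 ± 0.40 (adjusted p = 0.00134), where genes of its level had a median of 1.01. The difference was 1.79 after quantile normalisation (adjusted p = 0.0184) and 1.49 after cyclic loess (adjusted p = 0.00603).

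*Slc31a2*, a copper transporter of endosomes and lysosomes, read 5.73, 6.16, 6.45 and 6.22 in anti-VEGF tumours and 5.22, 5.17, 4.93 and 5.59 in controls, again without overlap. It rose by 0.92 ± 0.21 (adjusted p = 0.00414), where genes of its level had a median of 0.15, and the difference was 0.93 after quantile normalisation (adjusted p = 0.0296). *Slc39a6* and *Slc39a1*, which take zinc into the cytosol, rose by 1.14 (adjusted p = 0.00501) and 0.93 (adjusted p = 0.0459), where genes of their level had medians of 0.80 and 1.03. The first lay at 0.47 (adjusted p = 0.126) and the second at 0.08 (adjusted p = 0.821) after quantile normalisation, and the call of *Slc39a1* was lost without any one of the anti-VEGF arrays, control 1 or control 2, with adjusted p values between 0.0507 and 0.0912. The iron importer *Slc11a2* differed by 0.44 (adjusted p = 0.0737). Both dim members fell. One was *Slc30a8*, the zinc transporter of islet insulin granules, with a difference of -1.24 where genes of its level had a median of -0.97.

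The metal transporter that fell was *Slc39a5*, a zinc importer known from pancreas, gut and kidney. It read 5.39, 4.89, 4.80 and 4.95 in anti-VEGF tumours and 6.48, 5.71, 5.26 and 6.01 in controls. Anti-VEGF 1 lay above control 3, so the groups overlapped. The difference was -0.86 ± 0.26 (adjusted p = 0.0147), where genes of its level had a median of -0.08. It was -0.84 after quantile normalisation (adjusted p = 0.0573) and -0.85 after cyclic loess (adjusted p = 0.0148). Genes of pancreatic acinar cells moved with it. Of 19 such markers 11 were measured, all 11 fell, none was dim, and their median difference was -4.43. Among all expressed genes 9.71% fell. After quantile normalisation 9 of the 11 were lower, against 7.42% of all expressed genes, and the median of the 11 was -4.40. The mean of the 11 markers was 10.4, 4.72, 5.25 and 7.63 in anti-VEGF tumours 1 to 4. In controls it was 11.8, 11.1, 10.4 and 11.6, so that anti-VEGF 1 was nearly level with control 3 there as well. The part of these cells in the fall of *Slc39a5* was not tested, and in whole tumours fewer cells of a type and less RNA per cell cannot be told apart.

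Of a pair of amino acid carriers also known from acinar cells, 1 fell. *Slc43a1* read 4.86, 4.92, 5.04 and 4.94 in anti-VEGF tumours and 5.34, 5.38, 5.03 and 5.03 in controls, a difference of -0.26 (adjusted p = 0.169), and it lay at 0.00 after quantile normalisation. *Slc38a5* read 4.11, 3.88, 3.83 and 3.84 in anti-VEGF tumours and 5.01, 4.70, 5.03 and 4.61 in controls and fell by 0.92 (adjusted p = 0.00192), where genes of its level fell by a median of 0.60. Its difference was -0.41 after quantile normalisation (adjusted p = 0.0782) and -0.32 after cyclic loess (adjusted p = 0.0426). Anti-VEGF 1, with an acinar level near that of control 3, was the highest of the anti-VEGF arrays for *Slc38a5* and the lowest for *Slc43a1*.

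**Figure D3:**
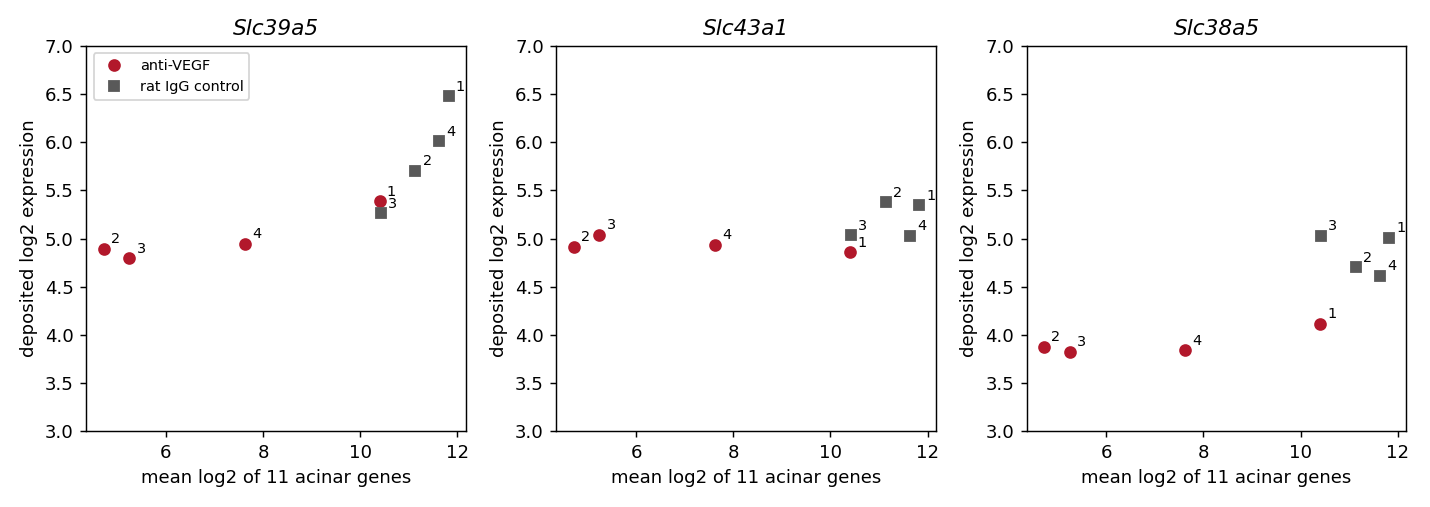
Deposited log2 expression of *Slc39a5*, *Slc43a1* and *Slc38a5* (vertical axes) against the mean log2 expression of 11 acinar genes (horizontal axes) in 4 anti-VEGF tumours (red circles) and 4 control tumours (grey squares), numbered by replicate. For *Slc39a5*, anti-VEGF 1 (5.39) and control 3 (5.26) lie side by side on both axes. Points are single arrays, and no test was made across them.

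Mitochondrial carriers of the SLC25 family were 23 genes, and were the family in which most members rose. Of the 16 expressed, 14 rose and 0 fell by limma, also at an unadjusted p under 0.05. This share of 87.5% stood against 41.5% of all expressed genes and 52.4% of all genes with a mean between 6 and 7, where the median member lay (6.66). The median difference was 1.06, and the medians of genes of the members' levels had a median of 0.70. After quantile normalisation 4 of the 16 were higher and 0 lower, with 7 higher (43.8%, against 25.6% of all expressed genes) and 0 lower at an unadjusted p under 0.05. Their median was then 0.44, against 0.06 for all expressed genes, and 14 of the 16 differences were above 0 (87.5%, against 53.8%). The 7 dim carriers had 6 that fell, with a median of -0.82 that was -0.18 after quantile normalisation, and included the ornithine carrier *Slc25a2* (-1.02).

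*Slc25a24*, which exchanges ATP-magnesium for phosphate under the control of calcium, read 8.80, 9.56, 9.44 and 9.47 in anti-VEGF tumours and 7.23, 7.68, 6.29 and 7.87 in controls. The groups did not overlap. It rose by 2.05 ± 0.33 (adjusted p = 0.00129), where genes of its level had a median of 0.96, and the difference was 1.25 after quantile normalisation (adjusted p = 0.0171). *Slc25a17*, a member of the family that works in peroxisomes and carries coenzymes and nucleotides, read 8.13, 8.64, 8.72 and 8.67 in anti-VEGF tumours and 5.72, 5.95, 5.50 and 7.48 in controls. Control 4 stood well above the other controls and still below every anti-VEGF array. It rose by 2.37 ± 0.38 (adjusted p = 0.00129), where genes of its level had a median of 0.88, and the difference was 1.80 after quantile normalisation (adjusted p = 0.0255).

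*Slc25a13*, the aspartate and glutamate carrier of the malate-aspartate shuttle, read 6.87, 7.52, 7.41 and 7.47 in anti-VEGF tumours and 5.94, 6.02, 5.41 and 6.46 in controls. It rose by 1.36 ± 0.24 (adjusted p = 0.00178), against 0.68 for genes of its level, and by 0.88 after quantile normalisation (adjusted p = 0.0297). *Slc25a32*, which brings folate and flavin cofactors into mitochondria, read 6.25, 6.90, 6.93 and 6.94 in anti-VEGF tumours and 5.57, 5.80, 5.04 and 5.96 in controls. It rose by 1.16 ± 0.24 (adjusted p = 0.00300), against 0.44 for genes of its level, and by 0.94 after quantile normalisation (adjusted p = 0.0437). In both genes every anti-VEGF array was above every control array, and anti-VEGF 1 was the lowest of its group.

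Of the 14 expressed carriers that rose on the deposited values, 4 were higher after quantile normalisation and 5 after cyclic loess. Those that passed under neither of these scalings included the 4 named next. *Slc25a4* and *Slc25a5*, the ADP and ATP exchangers, rose by 1.28 ± 0.35 (adjusted p = 0.00940) and 1.22 ± 0.34 (adjusted p = 0.0111), where genes of their level had medians of 0.97 and 0.90. After quantile normalisation they lay at 0.44 and 0.50 (adjusted p = 0.173 and 0.164). The mitochondrial iron importers *Slc25a37* and *Slc25a28* rose by 1.23 (adjusted p = 0.00480) and 0.87 (adjusted p = 0.00335), where genes of their level had medians of 0.89 and 0.70, and lay at 0.43 and 0.23 after quantile normalisation (adjusted p = 0.176 and 0.375).

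**Figure D4:**
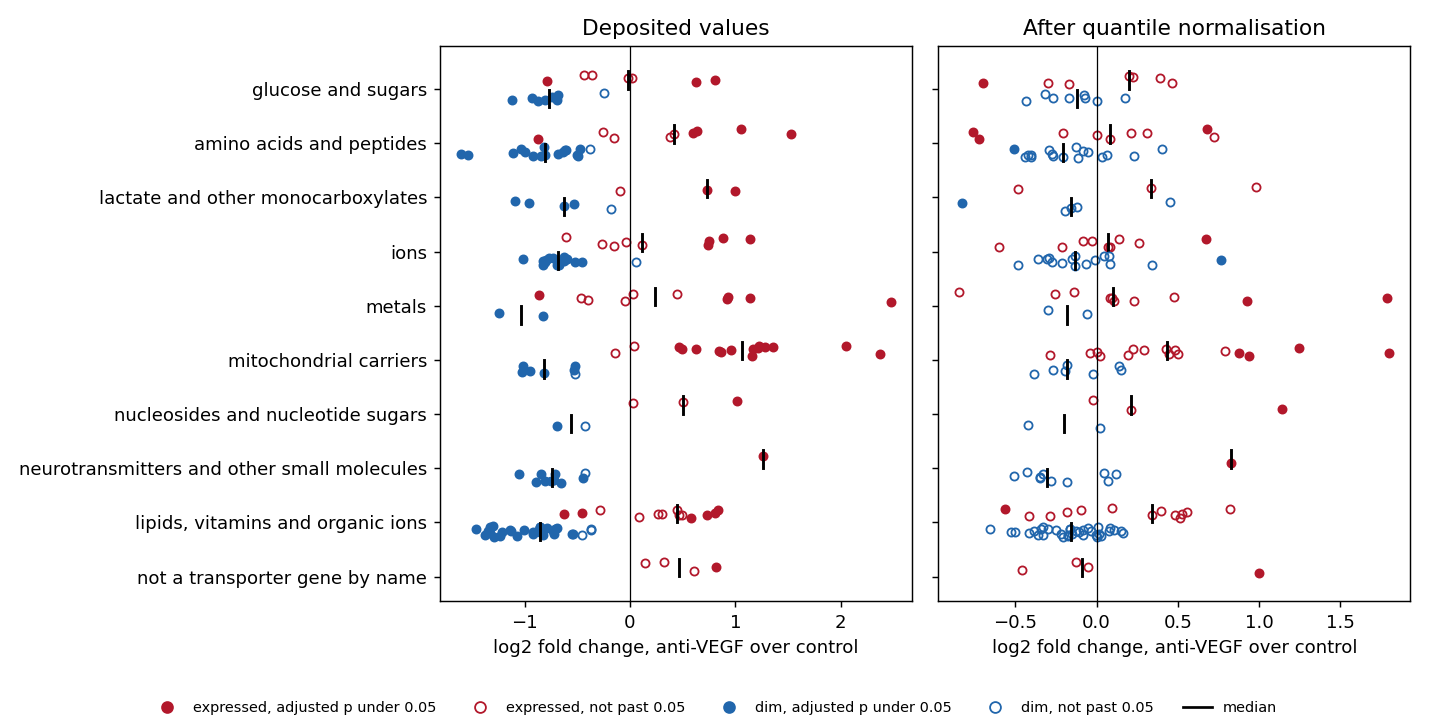
Difference between the groups (anti-VEGF minus control, log2) of every solute carrier gene by substrate family, on the deposited values (left) and after quantile normalisation (right). Red points are expressed and blue points dim genes, filled where the adjusted p was under 0.05, and black bars are medians (mitochondrial carriers, expressed, 1.06 left and 0.44 right). Dim genes of all families lie left of 0 on the deposited values, except *Slc9a4*.

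Nucleoside and nucleotide sugar carriers were 5, with 1 of 3 expressed genes rising and 1 of 2 dim genes, the nucleoside transporter *Slc28a1*, falling by 0.69 (adjusted p = 0.0107), with -0.42 after quantile normalisation (adjusted p = 0.120). *Slc35a3*, which carries UDP-N-acetylglucosamine into the Golgi, read 5.46, 5.91, 6.09 and 5.98 in anti-VEGF tumours and 4.82, 4.61, 4.95 and 5.0 in controls. It rose by 1.01 ± 0.19 (adjusted p = 0.00197) where genes of its level had a median of -0.14, and the difference was 1.14 after quantile normalisation (adjusted p = 0.0170). Carriers of neurotransmitters and other small molecules were 11, of which 9 of the 10 dim genes fell, where 76.7% of all dim genes fell. After quantile normalisation 0 of the 10 were lower by limma (2 at an unadjusted p under 0.05). Dim genes that fell included *Slc32a1*, the vesicular carrier of inhibitory transmitters, by 1.06, and the dopamine transporter *Slc6a3*, by 0.72. Genes of their level fell by medians of 0.74 and 0.38.

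The expressed gene among them was *Slc5a7*, the choline transporter known from cholinergic neurons. It read 6.34, 7.16, 7.22 and 7.14 in anti-VEGF tumours and 5.73, 5.84, 5.59 and 5.63 in controls, with no overlap. It rose by 1.26 ± 0.22 (adjusted p = 0.00150), where genes of its level had a median of 0.51, and by 0.83 after quantile normalisation (adjusted p = 0.0393), where the groups overlapped.

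Carriers of lipids, vitamins and organic ions were the largest group, with 47 genes. Of the 13 expressed, 4 rose and 2 fell, against 41.5% and 9.71% of all expressed genes. Of the 34 dim 31 fell and 0 rose, where 76.7% of all dim genes fell. After quantile normalisation 0 of the 13 were higher and 1 was lower by limma (3 and 2 at an unadjusted p under 0.05). None of the 34 then passed (0 higher and 1 lower at an unadjusted p under 0.05). *Slc22a17*, a cell-surface receptor for lipocalin-2, read 5.24, 4.92, 4.90 and 4.86 in anti-VEGF tumours and 5.72, 5.75, 5.40 and 5.56 in controls. All anti-VEGF arrays were below all controls. It fell by 0.63 ± 0.17 (adjusted p = 0.00834), where genes of its level had a median of -0.19, and lay at -0.57 after quantile normalisation (adjusted p = 0.0279). *Slc27a3*, an acyl-CoA synthetase of the fatty acid transport family named after its values were seen, fell by 0.45 (adjusted p = 0.0368), where genes of its level had a median of -0.14. It lay at -0.42 after quantile normalisation (adjusted p = 0.0654), and the call was lost without anti-VEGF 2, 3 or 4 or control 1 or 2 (adjusted p between 0.0702 and 0.105). The carnitine transporter *Slc22a5* and the ergothioneine transporter *Slc22a4* rose by 0.58 and 0.80, where genes of their level had medians of 0.07 and 0.36, and lay at 0.48 and 0.51 after quantile normalisation (adjusted p = 0.208 and 0.222). Among the dim genes *Slc10a5*, of the bile acid transporter family, had the largest fall, by 1.46, where genes of its level fell by a median of 1.06.

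Of the 4 genes that encode no transporter, 1 rose and 0 fell in limma (0 also at an unadjusted p under 0.05). It was *Slc4a1ap*, which encodes kanadaptin, a nuclear protein first described as a partner of an anion exchanger. It read 5.52, 5.83, 5.87 and 5.81 in anti-VEGF tumours and 5.07, 5.04, 4.66 and 5.0 in controls. The difference was 0.82 ± 0.17 (adjusted p = 0.00293) beside a median of -0.14 for genes of its level, and 1.00 after quantile normalisation (adjusted p = 0.0184).

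Markers of some other cells also differed between the arrays on the deposited values, and their part in the changes above was not tested. Of 10 epithelial tumour markers 6 were measured and 4 rose, with a mean of 8.18 to 8.52 in anti-VEGF tumours and 7.46 to 8.25 in controls, and 1 was higher after quantile normalisation. The 4 that rose had means of 7.90 to 10.8, and 67.9% of all genes from 7 to 8 and 57.1% from 8 upwards rose. The other pair were *Cdh1* (-0.55, adjusted p = 0.0562) and *Epcam* (-0.48, adjusted p = 0.0915), which was dim. Of 8 macrophage markers 5 were measured and all 5 rose, with means of 8.28 to 9.0 in anti-VEGF tumours and 6.64 to 7.94 in controls. The 5 genes had means of 7.34 to 8.79 over the 8 arrays, and 67.9% of all genes from 7 to 8 and 57.1% from 8 upwards rose. After quantile normalisation 1 of the 5 markers, *Cd163*, was higher (1.21, adjusted p = 0.0242), and the median of the 5 was 0.22. Of 7 endothelial markers 4 were measured, and 0 rose and 0 fell by limma, with a median difference of 0.02. Among the 4, *Cdh5* differed by 0.57 (adjusted p = 0.132) and *Kdr*, a receptor of VEGF, by -0.19 (adjusted p = 0.416). Of 7 neutrophil markers measured, 3 of them dim, 3 rose and 2 fell. Those that rose, *S100a8*, *S100a9* and *Retnlg*, were expressed, where 41.5% of all expressed genes rose. Those that fell were *Camp*, expressed, and *Elane*, dim, where 9.71% of all expressed and 76.7% of all dim genes fell. After quantile normalisation 3 were higher (*Ly6g* and *Ngp*, both dim, and *Retnlg*) and 1, *Camp*, was lower. Among all dim genes 3.25% were then higher, and among all expressed genes 12.7% were higher and 7.42% lower. The mean of the 7 was 5.04 to 5.92 in anti-VEGF tumours and 4.80 to 5.16 in controls. Of 5 adipocyte markers, 3 of them dim, 3 fell. Those that fell were *Adipoq* and *Lep*, both dim, and *Plin1*, expressed, where 76.7% of all dim and 9.71% of all expressed genes fell. None of the 5 passed in limma after quantile normalisation (0 higher and 1 lower at an unadjusted p under 0.05).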

How the data were processed

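Total RNA of 8 HM-1 tumours, 4 given anti-VEGF antibody and 4 given rat IgG, was measured on 1 Affymetrix array each. The authors deposited 1 table of log2 expression values, described as robust multi-array averages (RMA), a method that corrects background, quantile-normalises probes and summarises them. The spread of the deposited arrays differs (SD over genes 1.12 to 2.08), which is unusual after such a step, and whether another step followed is not given in the sources used here. According to its methods this was done in R. The tools listed by the submitters are Transcriptome Analysis Console and RMA. How the 13266 probe sets of the table were selected is not given in the sources used here. The paper's methods place the start of treatment 1 day later than the labels.

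Gene symbols came from the platform's annotation. A single symbol was given for 11743 probe sets, more than 1 for 800 and none for 723, and 11595 were found in the RefSeq gene table (GRCm38.p6), with 0 symbols changed. This gave 11667 genes. No filter was applied. The groups were compared with lmFit and eBayes of limma 3.58.1, run in R 4.3.3 without trend or robust options. Treatment was the sole term, with Benjamini-Hochberg adjustment over all 11667 genes and a threshold of 0.05. The fit was tested on simulated data. There is no sequencing depth in array data, so precision is set by the 4 arrays of a group.

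Members and lists were chosen with earlier results of these data known. The naming rule took 44 genes written by name, of which 14 were measured, up to 5 of smallest p in each family for expressed and dim members apart, and the 10 largest changes each way among genes called on the deposited values and after quantile normalisation with groups apart. This gave 79 genes, of which the text names part. Genes outside the rule are said to have been chosen after their values were seen. Substrate families were assigned by hand from the family numbers.

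The alternatives were quantile normalisation, cyclic loess, median centring, dim genes left out, the mean of all probe sets, platform symbols, a replicate block, trend and robust, array weights, a 2-fold threshold, a boundary at 4 or 6, and each array left out. Leaving out each array with quantile normalisation was added after the data were seen. Start windows came from RefSeq (GRCm38.p6) and were at hand for 139 of the 176 genes. Plots were made in Python 3.11.15 (matplotlib 3.10.9).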

Additional observations from a re-analysis of the deposited data

Results flagged for a closer look

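In 13 of 124 groups of 4 arrays, over the 62 genes named, 1 array lay apart from the others of its group by Dixon's criterion. The nominal rate of that criterion, about 1 in 20, is for independent groups, while the same 8 arrays recur in every gene. Many of the genes were also picked by their p or size of change, and the share over all genes is not given. The count of 13 is therefore not read against chance. Of the 13 flagged groups, 10 were on anti-VEGF 1 and 3 on control 3. Anti-VEGF 1 was the lowest of its group for *Slc30a4* (8.85), *Slc25a17* (8.13), *Slc25a24* (8.80), *Slc25a13* (6.87), *Slc25a32* (6.25), *Slc25a4* (8.51), *Slc5a7* (6.34) and *Slc4a1ap* (5.52). It was the highest of its group for *Slc12a1* (3.47) and *Slc22a17* (5.24). In each of these 10 genes it thus lay nearer to the control arrays than the other 3 anti-VEGF arrays did. Anti-VEGF 1 was also the anti-VEGF array with the highest mean of the acinar markers (10.4, against 4.72, 5.25 and 7.63 on arrays 2 to 4) and the smallest spread over genes (SD 1.99, against 2.07, 2.07 and 2.08), and the part of either in these values was not tested. Control 3 was the lowest control for *Slc38a4* (5.05), *Slc11a2* (5.20) and *Slc4a1ap* (4.66), and it had the smallest spread of all arrays (SD 1.12). On the deposited values the calls of these genes that passed were kept without anti-VEGF 1 and without control 3.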

How the results depend on the processing

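The number of expressed solute carriers that rose, 37 on the deposited values, was 11 after quantile normalisation, 11 after cyclic loess and 15 with a 2-fold threshold, and 30 to 39 with 1 array left out. The number that fell, 5, was 2 after median centring, 10 with trend and robust, 11 with array weights, 0 with a 2-fold threshold, 62 with the boundary at 4 and 0 with the boundary at 6, and 4 to 10 with 1 array left out (10 without control 3, 8 without control 4). The number of dim genes higher, 0, was 1 after quantile normalisation, cyclic loess or median centring, 8 with the boundary at 6 and 0 without any 1 array. The number of dim genes that fell, 91, was 2 after quantile normalisation, 6 after cyclic loess, 43 after median centring, 24 with a 2-fold threshold, 34 with the boundary at 4 and 76 to 97 with 1 array left out. After quantile normalisation 12 members were higher and 6 lower in all, and with 1 array left out, an alternative chosen after seeing the data, 0 to 15 were higher and 0 to 13 lower. These counts were 0 without anti-VEGF 2, 3 or 4, while 5 were higher and 3 lower without control 1. Median centring, which shifts each array without changing its spread, moved the median of all genes to -0.03 and gave 56 higher and 45 lower members, against 37 and 96 on the deposited values. The directions of some single genes turned. After quantile normalisation *Slc2a4* was at 0.18, *Slc5a1* at 0.0044, *Slc43a1* at 0.0019, *Slc6a15* at 0.036 and *Slc12a1* at 0.047. After cyclic loess *Slc2a4* was at 0.13, *Slc5a1* at 0.0074, *Slc6a15* at 0.063, *Slc12a1* at 0.032, *Slc12a7* at -0.0032 and *Slc39a1* at -0.050. After median centring *Slc2a4* was at 0.17, *Slc7a8* at 0.27, *Slc43a1* at 0.16 and *Slc16a13* at 0.32, and *Slc7a8* lay between -0.38 and 0.029 with 1 array left out, the upper value without control 4. The cause was not tested. With the replicate number as a block, 35 members were higher and 97 lower, and of the named genes *Slc16a14* lost its call (adjusted p = 0.0530). Same-numbered arrays' deviations correlated at 0.19, 0.126, -0.0367 and 0.163, and control 1 and control 4 matched their own number best while control 2 and control 3 did not. Unchanged platform symbols and the mean of all probe sets gave the same counts as the deposited values, and leaving out dim genes gave 34 higher and 5 lower expressed members and no value for dim ones.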
